A study of Homo sapiens with 45 samples.

Results

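In control HCT116 cells, 464 of the 845 autosomal H3K9me3 domains lay away from the nuclear lamina. A domain was taken as lamina-free when it shared no base with the lamin B1 domains of control cells and none with those of HNRNPK-depleted cells; the other 381 domains touched lamin B1 in at least 1 list. The domains were thus chosen by the deposited lamin B1 and control H3K9me3 lists, so that their distance to lamin B1 is a description. Only autosomes were used, and the control H3K9me3 list holds 895 domains over all chromosomes. HCT116 is an established human colon cancer cell line, and HNRNPK encodes a nuclear ribonucleoprotein that recognises C-rich nucleic acid. Cells had received nontargeting control siRNA or HNRNPK siRNA at 25 nM for 72 hours, with no other genotype or agent named. Chromatin immunoprecipitation (ChIP) gave 1 pooled domain list per antibody and siRNA (lamin B1, H3K9me3 and H3K27me3 in both, H3K9me2 in control cells alone), so that domain values have no replicates and their read depth is unknown. RNA was counted in 4 nontargeting (siNTC5) and 4 HNRNPK siRNA libraries, of which replicates 1 and 2 were made with a TruSeq kit and replicates 3 and 4 with a Ligation kit, and in 2 further control libraries labelled Scramble.

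Trimethylation of histone H3 at lysine 9 marks silent heterochromatin, and is laid down by methyltransferases such as SETDB1 and the SUV39H enzymes. Much of it lies in wide domains at the nuclear lamina, a protein mesh under the nuclear envelope of which lamin B1 is a part, where dimethylation of the same residue (H3K9me2) is also common. H3K9me3 is also known from clusters of KRAB zinc finger genes, which encode DNA-binding proteins that recruit TRIM28 and SETDB1 to repeats. H3K27me3 is the mark of Polycomb repression and is usually found at other genes than H3K9me3.

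Promoters of zinc finger genes in these domains were read for the dinucleotide CG, which is where DNA methylation can occur. For 3 zinc finger genes whose RNA changes are described further on, promoters are printed from RefSeq (GRCh38.p14) as the 250 bases before the transcription start, on the plus strand, with each CG in capitals. They are ZNF487 at chr10:43436598-43436847 and ZNF557 at chr19:7069453-7069702, whose RNA rose, and ZNF554 at chr19:2819618-2819867, whose RNA fell.
ZNF487: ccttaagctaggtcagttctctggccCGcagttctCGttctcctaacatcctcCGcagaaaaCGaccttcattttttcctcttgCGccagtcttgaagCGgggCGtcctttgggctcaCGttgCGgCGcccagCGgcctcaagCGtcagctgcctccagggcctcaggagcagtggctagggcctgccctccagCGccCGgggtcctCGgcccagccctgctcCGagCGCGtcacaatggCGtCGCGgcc
ZNF557: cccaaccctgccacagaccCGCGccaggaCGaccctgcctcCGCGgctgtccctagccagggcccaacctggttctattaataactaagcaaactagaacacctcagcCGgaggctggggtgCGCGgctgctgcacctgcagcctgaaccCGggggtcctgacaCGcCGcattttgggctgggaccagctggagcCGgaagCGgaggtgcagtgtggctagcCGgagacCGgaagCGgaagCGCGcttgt
ZNF554: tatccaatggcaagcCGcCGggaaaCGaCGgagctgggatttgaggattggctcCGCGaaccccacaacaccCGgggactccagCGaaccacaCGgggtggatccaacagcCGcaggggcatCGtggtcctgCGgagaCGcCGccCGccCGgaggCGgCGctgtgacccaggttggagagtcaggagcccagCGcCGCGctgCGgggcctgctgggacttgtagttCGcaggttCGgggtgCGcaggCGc
These stretches held 21, 18 and 26 CG. The starts of ZNF557 and ZNF554 lay inside a lamina-free domain, while that of ZNF487 lay before the first base of its domain. Over the 69 zinc finger genes of the lamina-free domains with a promoter sequence, of 80, the median was 18 CG (quartiles 13 and 23), near the 17 of 467 autosomal zinc finger promoters (quartiles 12 and 23) and the 17 of 15101 protein-coding promoters (6 and 26). It was 14 for 205 zinc finger genes of the lamin-touching domains and 11 for all 26246 autosomal promoters, noncoding genes included. Other protein-coding genes of the lamina-free domains had a median of 17 CG over the 84 promoters of genes tested for RNA and of 3 over the 144 of genes not tested. The letters TATAAA, searched on both strands, occurred in 0.0% of the zinc finger promoters of the lamina-free domains, beside 2.78% of all autosomal zinc finger promoters and 9.3% of protein-coding ones. Among the other protein-coding genes of the domains they occurred in 14.3% of the promoters of tested genes and 36.8% of those not tested. CCCC, searched likewise, occurred in all 3 printed stretches, in 92.8% of the zinc finger promoters of these domains, in 93.8% of all zinc finger promoters and in 92.1% of protein-coding ones.

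The lamina-free domains were narrow. Their width ran from 65 to 1180 kb with a median of 95 kb (quartiles 75 and 140 kb), whereas domains touching lamin B1 had a median of 880 kb (quartiles 305 and 1815 kb). In all they covered 62.6 Mb, against 535.6 Mb in the touching domains. Only 12 lamina-free domains (2.59%) reached 500 kb, compared with 245 touching domains (64.3%). A wide domain has more bases that could meet lamin B1, so that the rule itself bears on this difference. The authors' deposited score, whose unit is not given in the sources used here, had a median of 0.66 in the lamina-free and 1.31 in the touching domains. In the narrowest class (65 to 100 kb) the score medians were 0.61 and 0.57, and in the widest class shared by both (200 to 1200 kb) 0.88 and 1.21.

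Most lamina-free domains were far, in bases along the chromosome, from any listed lamin B1 domain, and their place in the nucleus was not measured. Their median distance to the nearest lamin B1 domain of either list was 1432.5 kb, and 267 (57.5%) lay at least 1 Mb away, up to 12300 kb. Within 50 kb lay 10 of the 464. At the edge of the rule, the member at chr2:30665001-30735000 abutted a lamin B1 domain (distance 0 kb), and those at chr12:124035001-124270000 and chr7:90135001-90210000 lay 10 kb from one. Just outside it, the domain at chr7:23765001-23880000 had 10 kb in control lamin B1 domains, that at chr17:82675001-82775000 had 15 kb in those of depleted cells, and that at chr12:130870001-130945000 had 25 kb in the latter.

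**Figure D1:**
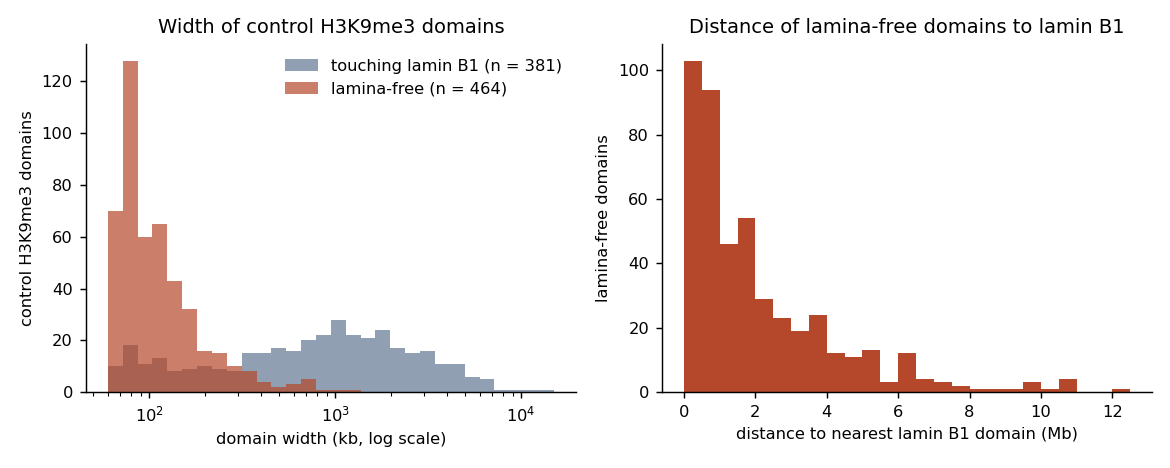
Left, number of control H3K9me3 domains by width (kb, log scale) for 464 lamina-free and 381 lamin-touching domains; right, number of lamina-free domains by distance to the nearest lamin B1 domain (Mb). The lamina-free domains peak below 100 kb, with a median of 95 kb, and their distances have a median of 1432.5 kb.

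The domains were unevenly spread over chromosomes. The 8 chromosomes with most of them (1, 6, 2, 12, 4, 3, 17 and 7) held 375 (80.8%). These were picked by that count, so that a high share is part of the choice. They made up 49.6% of the summed span from first to last gene of the autosomes, and held 48.8% of the touching domains. Relative to that span, chromosome 12 held 40.5 per 100 Mb, chromosome 6 held 34.6 and chromosome 17 held 32.5. Chromosomes 13 and 21 held 0, although they had 15 and 11 touching domains. Chromosome 19, known for its zinc finger clusters, had 7 lamina-free domains and 14 that touched lamin B1.

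**Figure D2:**
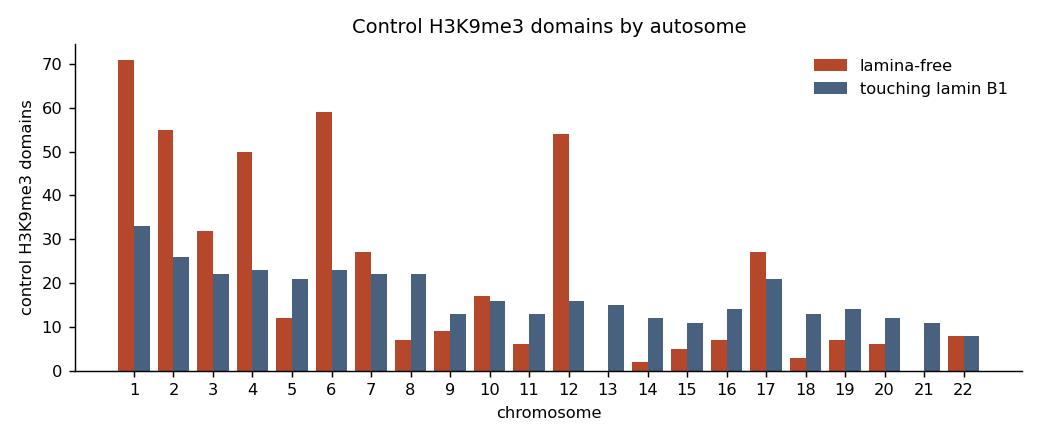
Number of control H3K9me3 domains on each autosome, lamina-free and touching lamin B1. Lamina-free domains outnumber touching ones on chromosome 12 (54 against 16) and chromosome 6 (59 against 23), and are absent from chromosomes 13 and 21.

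The widest lamina-free domain, chr2:225660001-226840000 (1180 kb), held IRS1, the insulin receptor substrate. Next came chr1:146090001-147090000 (1000 kb) with NBPF10, NOTCH2NLA, PPIAL4H and NBPF12, genes with near-identical copies elsewhere, and chr10:89800001-90685000 (885 kb) with no protein-coding gene. The fourth, chr17:40705001-41485000 (780 kb), held 52 protein-coding genes, of which 18 encode keratins and 34 keratin-associated proteins, the structural proteins of epidermis and hair. The fifth, chr4:167475001-168250000 (775 kb), held ANXA10, an annexin. The remaining 5 of the 10 widest, on chromosomes 3, 18, 14, 16 and 2, held no protein-coding gene.

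H3K9me2, the mark typical of lamina heterochromatin, was nearly missing. H3K9me2 domains of control cells covered 0.71% of the lamina-free length and 92.6% of the touching length. They met 5 lamina-free domains (1.08%, Wilson 95% interval 0.461 to 2.5%) over at least 50% of their length, of which 3 were on chromosome 17. Each of these 5 also lay entirely in H3K27me3 domains, and the one at chr17:35990001-36105000 held the chemokine genes CCL15, CCL23, CCL18, CCL3 and CCL4. Within classes of width the contrast remained, but it was smaller among narrow domains. Between 200 and 1200 kb, H3K9me2 covered 0.0% of lamina-free and 87.3% of touching length. Lamina-free domains were narrower in that class (median 285 kb against 650 kb). Between 100 and 200 kb the shares of length were 1.38% and 36.8%. At 65 to 100 kb, which held 247 of the 464 lamina-free domains, H3K9me2 covered 18.4% of touching length. Cover of at least 50% was found there in 0.81% of lamina-free and 19.4% of touching domains. Most touching domains of that class thus lacked such cover too. H3K9me2 was not used to choose the members, but its domains and those of lamin B1 cover much the same length of the touching domains (92.6% and 93.4% in control cells). Intervals over domains cover the number of domains alone, and neighbouring domains are not independent.

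H3K27me3 divided the lamina-free domains into 3 kinds. Of 464, 358 (77.2%) had no base in control H3K27me3 domains, 58 lay wholly inside one, and 48 were partly covered. By length the share was 17.3%, beside 14.5% in touching domains. At least 50% of the domain was covered in 86 lamina-free domains (18.5%, Wilson 95% interval 15.3 to 22.3%) and in 120 touching domains (31.5%, 27 to 36.3%). Within classes of width the gap was wider, with 19% against 66.7% at 65 to 100 kb and 17.9% against 57.5% at 100 to 200 kb. At 200 to 1200 kb, where lamina-free domains were narrower (median 285 kb against 650 kb), the shares were 18.0% and 40.4%. The widest lamina-free domain with H3K27me3 over at least 50% was the NBPF domain on chromosome 1 (99.5%), followed by chr2:238470001-238810000 (100.0%) and by chr19:34525001-34820000 (100.0%), which held ZNF302, ZNF181 and ZNF599.

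In HNRNPK-depleted cells the H3K27me3 list covered less of these domains. The covered length was 10.87 Mb in control and 9.16 Mb in depleted cells, a ratio of 0.843, while all autosomal H3K27me3 domains went from 771.7 to 744.2 Mb, a ratio of 0.964. The covered share was lower in 42 lamina-free domains and higher in 6. In touching domains it was lower in 51 and higher in 152. Of the 86 domains covered over at least 50%, 75 kept that cover, 9 had no base left, and 2 others newly reached 50%. One of the 9, chr12:56825001-56960000, went from 55.6% to 0.0% and held RDH16 and SDR9C7, which encode retinol and related short-chain dehydrogenases. Another, chr2:95100001-95280000, went from 52.8% to 0.0% and held MRPS5, ZNF514, ZNF2 and ZNF892. The NBPF domain on chromosome 1 went from 99.5% to 66.0%. These are differences between pooled lists with no replicate.

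The H3K9me3 domains themselves were found again after depletion. The H3K9me3 list of depleted cells covered 98.3% of the lamina-free length and met 460 of 464 domains, 432 of them whole. The 4 that were not met, on chromosomes 1, 1, 17 and 7, held no protein-coding gene and had a median score of 0.49. The domains of depleted cells that met a member, with their full widths summed, were wider than it for 418 of the 464 (90.1%). The median width ratio was 1.27. Among touching domains 74.8% were met by more width than their own, with a median ratio of 1.02. No control domain was under 65 kb, and whether the list of depleted cells has the same floor was not tested. Much of that difference went with width: at 65 to 100 kb, 93.9% of lamina-free and 91.7% of touching domains were wider, with ratios of 1.33 and 1.23. Of the 451 domains of depleted cells that met a member, 11 joined at least 2 members, and their full width was counted for each.

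**Figure D3:**
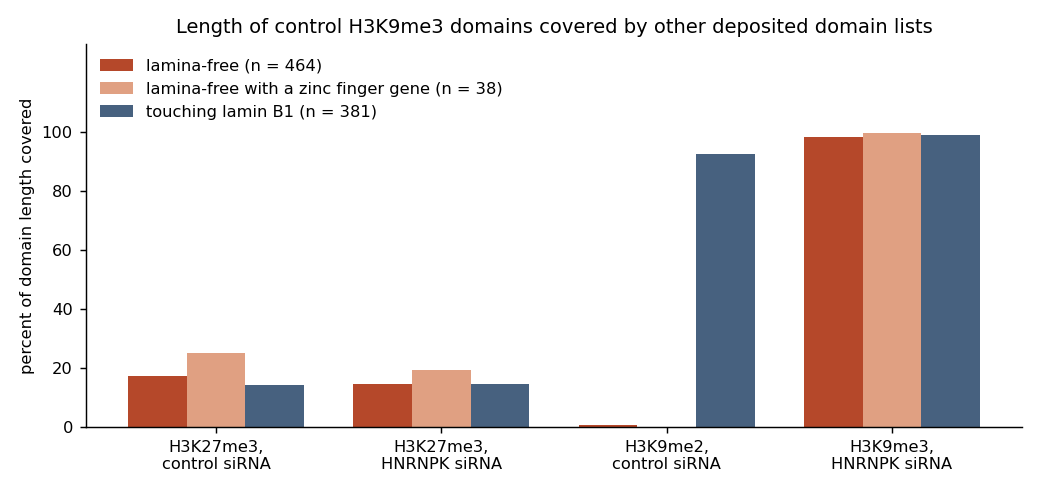
Percent of the length of control H3K9me3 domains covered by 4 other domain lists, for all lamina-free domains, for the 38 of them with a zinc finger gene, and for domains touching lamin B1; each bar is 1 pooled list with no replicate. H3K9me2 covers 0.71% of lamina-free and 92.6% of touching length, and H3K9me3 of depleted cells covers over 98% of both.

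Genes were placed in a domain when at least 50% of the RefSeq body lay in it. The lamina-free domains held 356 protein-coding genes, or 5.68 per Mb, beside 1.88 per Mb in the touching domains. They further held 423 long noncoding RNA genes, 426 pseudogenes and 35 tRNA genes. Of the tRNA genes, which are transcribed by RNA polymerase III, 21 lay on chromosome 6, and 8 each in chr6:27150001-27235000 and chr6:27290001-27500000. Most domains, 308 of 464, held no protein-coding gene, 118 held protein-coding genes of other kinds only, and 38 held a zinc finger gene. For 259 of 297 protein-coding genes with a known start (87.2%), and for 65 of 69 zinc finger genes (94.2%), the start lay inside as well.

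Zinc finger genes were the largest family counted. Families were set by gene symbol alone. Zinc finger genes with other kinds of symbol thus counted among the other protein-coding genes, and readthroughs such as ZNF660-ZNF197 counted as zinc finger genes. They made up 80 of the 356 protein-coding genes (22.5%, Wilson 95% interval 18.4 to 27.1%), beside 23.5% in touching domains and 2.89% of all autosomal protein-coding genes. The lamina-free ones were dispersed: they lay on 17 chromosomes, 17.5% of them on chromosome 19, with at most 8 in a domain, whereas 83.5% of the 237 in touching domains lay on chromosome 19 and up to 30 shared a domain. The 38 domains with a zinc finger gene had a median width of 142.5 kb, a median score of 1.08, and H3K27me3 over 25.3% of their length. Keratin-associated protein genes made up 9.55% (34 genes), all in the chromosome 17 domain. Olfactory receptor genes made up 1.97% (7 genes), against 13.8% in touching domains. Clustered protocadherin, replication histone and HOX genes numbered 0, while touching domains held 35 clustered protocadherins.

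The domains with most zinc finger genes were chr3:44465001-44800000 with 8, chr16:3195001-3450000 with 6, chr19:2815001-2955000 with 5, and chr10:43450001-43675000 and chr8:144800001-145025000 with 4 each. The first of them held ZNF852, ZKSCAN7, ZNF660, ZNF660-ZNF197, ZNF197, ZNF35, ZNF502 and ZNF501, and its H3K27me3 cover went from 29.9% in control to 0.0% in depleted cells. Control and depleted cells had H3K27me3 over 73.3% and 62.2% of the chromosome 10 domain and over 20.0% and 20.0% of the chromosome 8 domain, and 0.0% of those on chromosomes 16 and 19.

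Libraries of the RNA comparison held 12107280 to 23633851 counts. HNRNPK itself measured 814 to 967 CPM (counts scaled to TMM-normalised library size) in the control libraries and 157 to 250 CPM in the depleted ones, and fell by 2.17 on the log2 scale (SE 0.06, n = 4 per group, edgeR quasi-likelihood test with Benjamini-Hochberg adjustment, adjusted p = 7.29e-15). Of 12 colon epithelial markers 6 passed the filter on low counts (EPCAM, CDH1, KRT8, KRT18, KRT19, CDX2), while CEACAM6 and ASCL2 were at 0 in all 8 libraries. Of these 6, 4 rose and 1 (KRT19) fell, and the summed level of the 12 was 2696 to 3113 CPM in control and 4403 to 5442 CPM in depleted libraries; the part of this in the results below was not tested. Of 6 fibroblast and 6 blood markers, 2 and 1 passed, and their summed levels were 44.6 to 73.3 and 17.7 to 24.6 CPM in control libraries, then 75.4 to 122 and 22.1 to 27.4 CPM; most of this was COL1A1 and CD68, and COL1A2, DCN, LUM and CD3E were at 0 in every control library. In such bulk samples fewer cells of a type and less RNA per cell cannot be told apart. No label says whether replicates are separate cultures, so p-values measure the spread between libraries, which may be technical.

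Many genes of the domains gave little or no count. Of the 356 protein-coding genes 337 were in the count table, 160 passed the filter on low counts, 89 fell below it, and 88 were listed at 0 in all 8 libraries. The share tested was 44.9%, against 16.8% in touching domains and 63.2% of all autosomal protein-coding genes. Zinc finger genes fared differently, with 59 of 80 tested, 10 below the filter and 10 listed at 0. A value of 0 in this table does not show a silent gene. Among all names listed at 0 in the 8 libraries, 148 had more than 200 counts in both Scramble libraries, which were counted in separate tables, and 7 of these lay in lamina-free domains. ZNF197 had 2668 and 2752 counts there, KIAA1143 had 1975 and 2062, ZNF35 had 702 and 642, SMDT1 had 922 and 845, KRT23 had 919 and 716, ZNF780B had 341 and 317, and KRTAP2-3 had 226 and 260. All 11 genes of the chromosome 3 zinc finger domain that the table lists were at 0 in the 8 libraries, so their response could not be measured, and the cause of these zeros was not tested. Of the 88 protein-coding genes at 0, 58 were at 0 in both Scramble libraries as well.

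In all, 195 genes of the lamina-free domains were tested, counting 35 noncoding genes and pseudogenes. After HNRNPK depletion 71 (36.4%) rose and 52 (26.7%) fell at an adjusted p under 0.05, and 72 did not pass. Over all 13933 tested genes 71.5% were called, 35.5% higher and 36.1% lower, so that the share of rises in the domains was near the background. The median log2 fold change of the 195 was 0.09 (quartiles -0.34 and 0.5), beside -0.0 over all tested genes and 0.46 over 202 genes of the touching domains, of which 125 rose and 15 fell. When any overlap placed a gene in a domain, 106 rose, 120 fell and the median was -0.03. The number tested under that placement is not given here, so these counts cannot be set beside the background shares. Among the 195, rises of at least 1 on the log2 scale numbered 15 (7.69%, background 7.47%), and falls of that size 21 (10.8%, background 8.28%). Of the 195, 102 (52.3%) were called with groups that did not overlap in CPM, near the 55.8% over all tested genes. Genes outside the H3K9me3 domains but within 50 kb of a lamina-free one gave 100 rises and 134 falls among 335.

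Zinc finger genes and the other protein-coding genes of these domains, split by gene symbol, gave different counts, a difference between sets that was not tested. Of 59 zinc finger genes 33 rose (55.9%, background 35.5%) and 5 fell (8.47%, background 36.1%), with a median log2 fold change of 0.33. Over all 389 tested autosomal zinc finger genes, these 59 included, 54.0% rose and 13.6% fell (median 0.29). The share of rises in the domains was thus near that of the whole family. In each of the 4 depleted libraries the median difference of the 59 from the controls of the same kit was above 0. It ran from 0.246 to 0.323 on the log2(CPM + 0.5) scale. Zinc finger genes elsewhere also gave more rises than falls. In touching domains 91 of 125 rose (72.8%) and 2 fell (1.6%, median 0.60). Outside control H3K9me3 domains 86 of 205 rose (42.0%) and 46 fell (22.4%, median 0.11). Of the 101 other protein-coding genes in lamina-free domains 27 rose (26.7%) and 40 fell (39.6%, median -0.10). Over all tested autosomal protein-coding genes 35.1% rose and 38.1% fell, so that the share of falls was near the background. Of the 35 noncoding genes and pseudogenes 11 rose (31.4%) and 7 fell (20.0%, median 0.16). In the 30 tested genes of domains with H3K27me3 over at least 50%, 13 rose (43.3%), 7 fell (23.3%) and the median was 0.21. Over all tested genes 35.5% rose and 36.1% fell. Within the TruSeq libraries alone 60 domain genes rose and 43 fell, 28 of the rises in zinc finger genes. Within the Ligation libraries alone 63 rose and 52 fell, again with 28 zinc finger genes. The shares over all tested genes within each kit are not given here. An edgeR test of whether the change after depletion differed between kits called 0 of the 195 genes and 18 of all 13933 tested genes after adjustment. It did not test whether RNA levels differed between kits. An unadjusted p under 0.05 in this edgeR test was found for 9 of the 195 and for 1639 of all tested genes. No other tool was run for it.

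**Figure D4:**
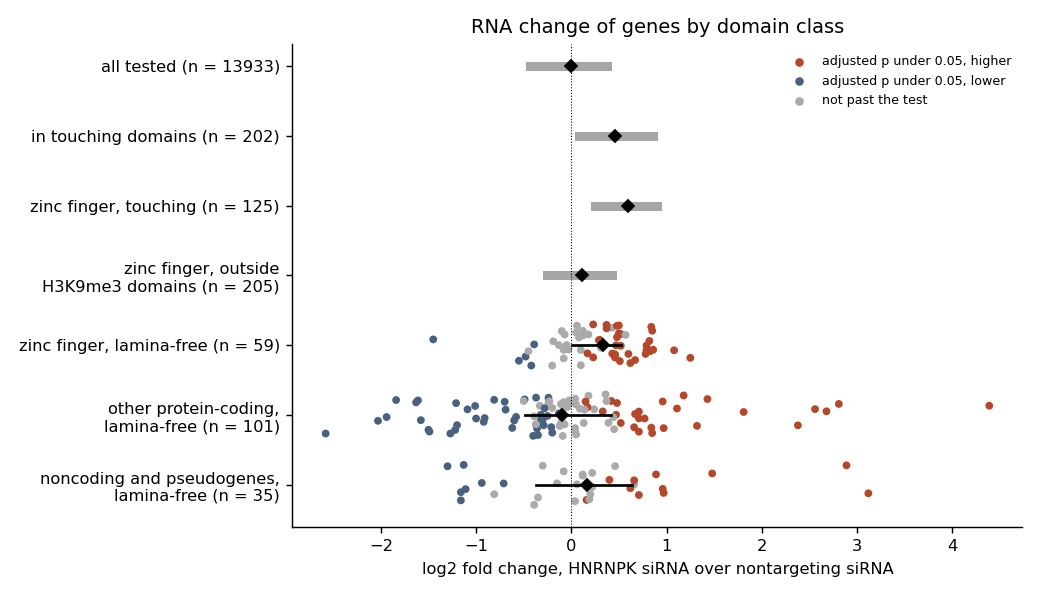
Log2 fold change of RNA after HNRNPK depletion by gene set; diamonds are medians, bars span the quartiles, and points are single genes of lamina-free domains coloured by the edgeR test. The 59 zinc finger genes have a median of 0.33, and the 101 other protein-coding genes a median of -0.10.

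Zinc finger genes that shared a domain included both rises and falls in 3 domains. Among the 32 domains with a tested zinc finger gene, 15 had at least 2; in 2 of these every tested one rose, in 3 some rose and some fell, and in 0 all fell. In the chromosome 16 domain, 5 of 6 rose with a median of 0.46: ZNF263 by 0.78, ZNF200 by 0.52, ZNF597 by 0.46, ZNF75A by 0.45 and ZNF174 by 0.23, while ZSCAN32 had 0.10 and did not pass. ZNF263 measured 46.9, 50.7, 44.4 and 47.2 CPM in control replicates 1 to 4 and 76.4, 79.2, 82.2 and 87.7 CPM in the depleted ones, so that the groups were apart. In the chromosome 10 domain, which carried H3K27me3, ZNF487 rose by 1.25, ZNF485 by 0.84 and ZNF239 by 0.67, and ZNF32 fell by 0.48. In the chromosome 19 domain at chr19:2815001-2955000, 2 of 4 rose and ZNF554 fell. In the H3K27me3 domain at chr19:34525001-34820000, 0 of 3 rose and ZNF181 fell by 0.55. Zinc finger genes are similar in sequence, and how reads matching several genes were counted is not given in the sources used here.

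The zinc finger genes named for their size of change were 4, all with groups that did not overlap, as the rule for naming required. ZNF192P1, a transcribed pseudogene at chr6:28161761-28169595, had 1.9, 2.26, 2.8 and 2.57 CPM in control and 15.0, 16.6, 20.1 and 19.4 CPM in depleted libraries. It rose by 2.89 (SE 0.12), the highest rise of the genes named by rule, in a 65 kb domain without H3K27me3. ZNF487, at chr10:43436848-43523894, had 1.9, 1.84, 1.73 and 2.03 CPM, then 3.43, 4.23, 5.82 and 4.7 CPM (log2 fold change 1.25, SE 0.19). ZNF557, at chr19:7069703-7087968, went from 16.4, 17.8, 16.0 and 16.4 CPM to 33.2, 34.6, 35.1 and 38.8 CPM, a rise of 1.08 (SE 0.08). ZNF554, at chr19:2819868-2836735, went the other way. It measured 3.62, 4.34, 5.06 and 5.47 CPM in control and 1.71, 1.93, 1.43 and 1.57 CPM in depleted libraries, and fell by 1.45 (SE 0.19, adjusted p = 2.03e-06 by the edgeR quasi-likelihood test).

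The other named rises included genes of a natural killer cell receptor cluster and an apolipoprotein gene. The receptor cluster lay in the 325 kb domain chr12:10230001-10555000. In it KLRD1, which encodes CD94, had 0.711 to 1.37 CPM in control and 6.46 to 11.1 CPM in depleted libraries and rose by 2.81 (SE 0.19), and KLRC3, which encodes a partner of CD94, rose by 1.43 (SE 0.14) from 3.38 to 4.13 CPM to 8.57 to 12.1 CPM. Of the other genes there, KLRC4 rose by 1.11 and the readthrough KLRC4-KLRK1 by 1.32; both were chosen after their values were seen, overlap each other, and stood under 4 CPM. APOL6, of the apolipoprotein L family, rose by 2.68 (SE 0.17) from 1.19 to 1.59 CPM to 6.54 to 9.72 CPM.

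The chromosome 12 domain with no base in the H3K27me3 list of depleted cells held a pair of rising dehydrogenase genes. Whether cover and RNA are linked was not tested. RDH16, a retinol dehydrogenase at chr12:56951431-56957608, had 2.31, 1.5, 2.73 and 2.52 CPM in control and 9.69, 9.88, 13.9 and 13.4 CPM in depleted libraries, a rise of 2.38 (SE 0.14, edgeR adjusted p = 3.99e-11). SDR9C7, a short-chain dehydrogenase of skin, was chosen after its values were seen. Its counts were 0, 5, 2 and 3 in control and 35, 38, 44 and 40 in depleted libraries, so that its fitted log2 fold change of 4.39 (SE 0.37) rests on few control counts. CYP2E1, a cytochrome P450 that oxidises ethanol, lay in a domain whose H3K27me3 went from 81.4% to 58.1%. Its level was 1.36, 0.919, 1.4 and 2.08 CPM in control and 8.37, 9.43, 7.08 and 8.57 CPM in depleted libraries, and it rose by 2.56 (SE 0.20). Genes of other domains with falling H3K27me3 cover did not all rise: on chromosome 2 ZNF2 rose by 0.60, MRPS5 fell by 0.36 and ZNF514 had -0.07 without passing. In the NBPF domain NBPF10 rose by 0.77 and NBPF12 by 0.71, while NOTCH2NLA had -0.33 and did not pass. The noncoding LINC00342, whose domain went from 100.0% to 23.8%, fell by 0.94. Over all lamina-free domains with a lower covered share, 25 genes were tested, of which 14 (56.0%) rose, 4 (16.0%) fell and 7 did not pass, beside 35.5% higher and 36.1% lower over all tested genes. This count was added after the values were seen.

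A pair of long RNAs with regulatory roles also rose. TUG1, a long RNA that RefSeq lists as protein-coding, measured 149, 162, 140 and 149 CPM in control and 352, 357, 323 and 331 CPM in depleted libraries, a rise of 1.18 (SE 0.04). KCNQ1OT1, the antisense RNA of the imprinted KCNQ1 locus, went from 9.19 to 13.7 CPM to 17.9 to 27.5 CPM, a rise of 0.96 (SE 0.09). The strand counted is not given in the sources used here, so reads of KCNQ1OT1 and KCNQ1 cannot be told apart.

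The 10 largest falls were of genes with varied roles, and none of their domains had H3K27me3 over at least 50%, a class that held 30 of the 195 tested genes. The domain of the largest fall, LONRF2, was just under that cut, with 46.7% in both control and depleted cells. The domains of the others had 0.0% in both. LONRF2, which encodes a ring finger protein, had 20.8, 27.5, 25.6 and 25.7 CPM in control and 4.09, 5.27, 2.87 and 4.37 CPM in depleted libraries, and fell by 2.58 (SE 0.14). SLCO1B3, a transporter of organic anions such as bile acids, had 7.17, 7.35, 6.93 and 7.01 CPM, then 2.5, 0.817, 2.28 and 1.32 CPM, a log2 fold change of -2.03 (SE 0.22). ANXA10, the gene of the 775 kb domain, went from 29.2, 25.7, 24.5 and 24.2 CPM to 12.1, 7.72, 6.07 and 7.91 CPM, a log2 fold change of -1.61 (SE 0.12). SAMD13 fell by 1.94, ERV3-1, the envelope gene of an endogenous retrovirus that overlaps ZNF117, by 1.63, and NIPAL1, a magnesium transporter family member, by 1.58. ANKMY1 fell by 1.27 and C1orf210 by 1.21.

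**Figure D5:**
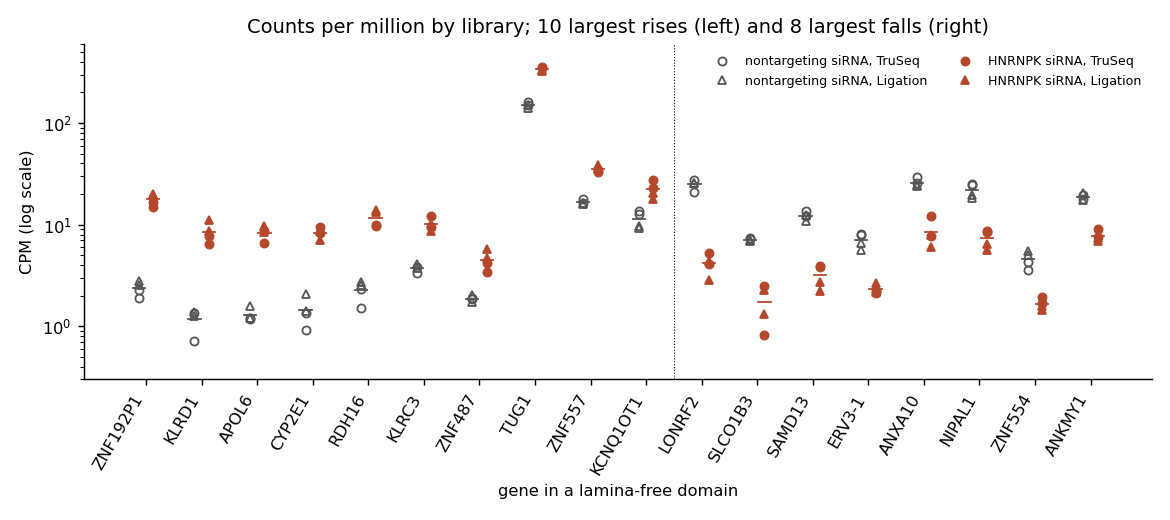
CPM (log scale) in each of the 8 libraries for the 10 largest rises (left of the dotted line) and 8 largest falls (right) among genes of lamina-free domains; circles are TruSeq and triangles Ligation libraries, and short lines are group means. Genes were chosen for groups that do not overlap, so the separation is part of the choice; ZNF192P1 lies at 1.9 to 2.8 CPM in control and 15.0 to 20.1 CPM in depleted libraries.

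Some genes of the lamina-free domains were well counted. The 5 with the highest control CPM, which is not scaled for length, were PRDX6, ZNF24, IRS1, TUG1 and EBNA1BP2. ZNF24, at 170, 175, 172 and 171 CPM in control and 234, 238, 248 and 242 CPM in depleted libraries, rose by 0.48 (SE 0.04). IRS1, in the widest domain, had 183, 143, 167 and 164 CPM, then 123, 118, 135 and 139 CPM, and fell by 0.35 (SE 0.06). PRDX6, a peroxiredoxin, had a log2 fold change of -0.13 with overlapping groups, and did not pass without the kit term (adjusted p = 0.12, edgeR). EBNA1BP2 had -0.07 and did not pass. In the keratin domain 42 of 51 listed genes were at 0 in all 8 libraries and 2 were tested: KRT10, a keratin of skin, rose by 0.66 and KRT32 had -0.23 without passing.

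Genes of the H3K9me3 and H3K27me3 machinery changed in both directions, in shares not far from the 35.5% higher and 36.1% lower of all tested genes. Of 24 writers and readers of H3K9me3, 23 were tested, 7 (30.4%) rose and 9 (39.1%) fell, with a median of -0.03. Of 10 H3K9 demethylases 4 rose and 4 fell, and the only change of at least 1 was in KDM4B, a demethylase of H3K9me3, which had 68.1, 39.6, 90.5 and 83.3 CPM in control and 14.5, 13.8, 20.8 and 19.4 CPM in depleted libraries (log2 fold change -2.02, SE 0.13). Of 14 genes of the H3K27me3 machinery 13 were tested, 3 (23.1%) rose and 5 (38.5%) fell. ATF7IP and MORC2 themselves lay in lamina-free domains. ATF7IP, a partner of SETDB1, rose by 0.47 (SE 0.06), and MORC2, an ATPase that works with the HUSH complex, by 0.17 (SE 0.05). With the Scramble libraries added ATF7IP had 0.31 (adjusted p = 0.106, edgeR), and with Ligation libraries alone MORC2 had 0.13 (adjusted p = 0.0967, edgeR).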

How the data were processed

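ChIP domain lists hold 1 authors' deposited score per domain; the caller, the score's unit, the input handling and the pooling of replicates are not given in the sources used here. Per the submitters' processing notes, ChIP used fastp 0.23.2, Bowtie2 2.5.1 and deepTools 3.1.3 on hg38, and RNA used STAR 2.7.1a and featureCounts (Subread 2.0.6). The deposited RNA values are raw counts per gene symbol, in 1 table of 8 libraries and 2 Scramble tables, for which the notes name hg19 and hg38. Bases were compared in Python 3.11.15, with gene positions from RefSeq GRCh38.p14, where 26362 of 56756 autosomal genes matched a counted name. The edgeR 4.0.16 quasi-likelihood test was run on genes kept by filterByExpr, with TMM factors and terms for kit and treatment, and a Benjamini-Hochberg threshold of 0.05 over all tested genes. DESeq2 1.42.0, other filters, kits, controls, gene placements and domain rules were alternatives. As a check of pairing, control and depleted libraries of equal number deviated together from their group means (r = 0.1004, 0.4246, 0.3365 and 0.2653 across genes); equal numbers share a kit, and after the kit effect was removed r was 0.0582 and 0.009.

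Named by rule were HNRNPK, the 10 largest rises and falls among domain genes (adjusted p under 0.05, average log2 CPM of at least 1, groups not overlapping), the 5 with the highest control CPM, list genes changed by at least 1 and list genes in the domains. 1 named fall is not reported here. Members and lists were chosen with earlier results of these data known. Steps were tested on simulated data.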

Additional observations from a re-analysis of the deposited data

Results flagged for a closer look

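Of 56 groups of 4 libraries over the named genes, 2 had a library far from the others, where chance gives about 1 in 20. KLRD1 had 0.711 CPM in control replicate 1 and 1.27 to 1.37 CPM in the other controls. APOL6 had 1.59 CPM in control replicate 4 and 1.19 to 1.21 CPM in the other controls. Both stayed below every depleted library, which the rule that named these genes required.

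Signal was present in the Scramble libraries for genes of the domains that were listed at 0 in the other 8 libraries. In Scramble replicate 5, ZNF197 had 2668 counts, KIAA1143 had 1975, SMDT1 had 922, KRT23 had 919, ZNF35 had 702, ZNF780B had 341 and KRTAP2-3 had 226.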

How the results depend on the processing

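Over 131 values of the main results under alternatives, 112 were judged the same, 18 moved and 1 changed sign. Counts and lengths were judged the same within 1.5-fold of the main value. Medians had to keep their sign and stay within the standard deviation between depleted libraries. Shares had to stay within a Wilson interval, for which a share of length was treated as a share of domains. With gene placement by any overlap, genes that fell numbered 120, the median was -0.03 and zinc finger genes made up 16.0% of protein-coding genes. The median, 0.09 in the main fit of all libraries, was 0.06 with Ligation and 0.07 with TruSeq libraries alone, 0.05 with Scramble libraries added, 0.27 without a filter on low counts (0.07 over all tested genes), and 0.06 by gene midpoint or without domains within 50 kb of lamin B1. Leaving out each library gave medians of 0.04 (HNRNPK siRNA replicate 1) to 0.11 (control replicate 1), with 67 to 72 rises and 51 to 56 falls. Domains with deposited scores at or above the median of the list numbered 146 over 26 Mb, with H3K27me3 over 10.5%, 99.2% kept after depletion and 32.4% zinc finger genes. With the replicate block 69 rose, 53 fell and 31 zinc finger genes rose, and no call of a named gene changed. Of 448 values for 28 named genes 438 kept call and direction; EBNA1BP2, not called, turned to 0.04 (Ligation alone) and 0.03 (Scramble added). The causes were not tested. The ChIP depth is unknown, so how it limits the domain lists cannot be given.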
